A study of Homo sapiens with 27 samples.

Results

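AXL, TYRO3 and MERTK form the TAM family of receptor tyrosine kinases, and GAS6 and PROS1 (protein S) encode its main ligands. These 5 genes were followed across 9 established human cell lines, each sequenced as 3 poly-A RNA libraries. The members were read by symbol after the deposited transcript values had been summed to genes of GENCODE 29. They are 5 of 34584 genes with a matched transcript, and all 5 were among the 17220 genes that passed the filter on low counts.

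A TAM receptor carries immunoglobulin-like and fibronectin-like domains outside the cell and a kinase domain inside it. GAS6 and protein S are secreted proteins whose Gla domain is carboxylated with the help of vitamin K, so that they can bind phosphatidylserine on dying cells while their other end engages the receptor. GAS6 is known to bind all members of the family, and protein S to bind TYRO3 and MERTK. MERTK and AXL are known from macrophages, where they take part in clearing dying cells, and protein S is also an anticoagulant cofactor of activated protein C that is made mainly in liver. In melanoma, cells with high AXL and low MITF, the master transcription factor of melanocytes, have been described as a state of their own.

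The 2 lines labelled skin, SK-Mel 28 and SK-Mel 24, come from melanomas. The other labels were brain for U251 (glioblastoma), epithelial for BJ (normal skin fibroblasts), bone for U2-OS (osteosarcoma), lung for A549 (adenocarcinoma), colon for Caco2 (colorectal carcinoma), kidney for RT4 (a bladder tumour line) and liver for HepG2 (a liver tumour line). No line was treated. SK-Mel 24 was kept in EMEM with 15% serum, and SK-Mel 28, U251, Caco2 and HepG2 in EMEM with 10%. A549 and BJ grew in DMEM and U2-OS and RT4 in McCoy medium, all with 10% serum, so line and medium cannot be told apart. Each line is 1 culture history, and the series calls its 3 libraries biological replicates without saying how separate they were, so p-values measure the spread between these libraries.

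Libraries held 15597117 to 32583547 estimated counts. In HepG2, mitochondrial genes took 79.0%, 42.3% and 41.8% of TPM, while their share elsewhere (24 libraries) was 2.16% to 9.97%. TPM is a share of the library corrected for transcript length, so every TPM value of HepG2 is lowered by this. The tests below used counts scaled by TMM factors instead. These were 0.855 to 1.35 outside HepG2 but 0.255, 0.587 and 0.607 in HepG2, so calls with HepG2 rest on a strong scaling. A mean of at least 1 TPM was reached by 5 of 5 melanocyte markers in SK-Mel 28 and 4 of 5 in SK-Mel 24. PMEL (3.10 TPM) and MLANA (1.08 TPM) were low in SK-Mel 24. Caco2 had 8.24 TPM of PMEL and U251 1.30 TPM of MLANA. The level was also reached by 5 of 5 fibroblast genes in BJ and 5 of 5 liver genes in HepG2. It was reached by 5 of 5 astroglial genes in U251 (but also in SK-Mel 24). Caco2 had 4 of 5 colon genes at this level, and U2-OS 3 of 5 bone genes. It does not tell lines apart by itself, since 4 of 5 liver genes reached it in Caco2 and SK-Mel 28. So did 4 of 5 fibroblast genes in SK-Mel 24 and 4 of 5 astroglial genes in SK-Mel 28. RT4 had 0 of 5 kidney tubule genes at that level and 4 of 5 urothelial genes, and A549 had 1 of 5 lung genes (KRT8). Of 7 macrophage markers, 3 reached 1 TPM in Caco2 and at most 1 in any other line.

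AXL was either abundant or nearly absent. The gene lies on chromosome 19 (41219203 to 41261766, plus strand, GRCh38). U251 libraries had 483, 413 and 360 TPM. SK-Mel 24 had 192, 199 and 185 TPM. BJ had 265.3, 144.8 and 154.6 TPM. All 9 of these libraries lay above 140 TPM, and the 3 U251 libraries were higher than any other. U2-OS had 148.9, 129.6 and 233.5 TPM. A549 had 111, 86.9 and 39.4 TPM. Caco2 had 1.71, 2.05 and 2.72 TPM. A gap separated A549 from Caco2, with no library between 2.72 and 39.4 TPM, and the A549 mean (78.9 ± 36.2 TPM, SD, n = 3) was 36.6 times the Caco2 mean (2.16 ± 0.518 TPM, SD, n = 3). SK-Mel 28 had 0.337, 0.753 and 0.272 TPM. HepG2 had 0.282, 0.252 and 0.52 TPM. RT4 had 0.213, 0.243 and 0.178 TPM. These last 3 lines held only 62, 146 and 35 estimated AXL counts over their libraries. In such bulk samples, fewer cells with the transcript and less transcript per cell cannot be told apart. The U251 mean was 1978 times the RT4 mean.

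The share of genes passing a test of any difference over the 9 lines was 98.3%, so it is of little use for the members, all of which passed (edgeR quasi-likelihood F test, adjusted p from 2.11e-11 for TYRO3 to 1.04e-17 for MERTK). Each of the 36 pairs of lines was therefore tested in the same fit, and a pair was called at an adjusted p under 0.05 with at least a 2-fold difference. Over all genes and pairs, 43.3% of tests were called. The count was 29 of 36 for AXL, 17 for TYRO3, 31 for MERTK, 33 for GAS6 and 29 for PROS1. TYRO3 thus stood close to that background and the other 4 above it. In the order of AXL levels, SK-Mel 24 and BJ, BJ and U2-OS, and U2-OS and A549 were not called different. U2-OS over A549 was called when any 1 of 4 libraries of these lines was left out (log2 fold change 1.05 to 1.23), and BJ over U2-OS without U2-OS library 3 (1.03). U251 was called above SK-Mel 24 (log2 fold change 1.22 ± 0.36 SE, edgeR adjusted p = 0.00693). SK-Mel 28 was called below HepG2 (-2.60 ± 0.47, edgeR adjusted p = 3.22e-05) although its mean TPM was higher (0.454 against 0.351). AXL-201, the long transcript, had a mean of 0.163 TPM in SK-Mel 28 and 0.347 TPM in HepG2. The rest of the SK-Mel 28 value sat on shorter transcripts with few counts. TPM without mitochondrial genes also put HepG2 above SK-Mel 28 (0.889 ± 0.451 against 0.486 ± 0.286, SD, n = 3 each). What set the call apart from the TPM order was not tested.

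**Figure D1:**
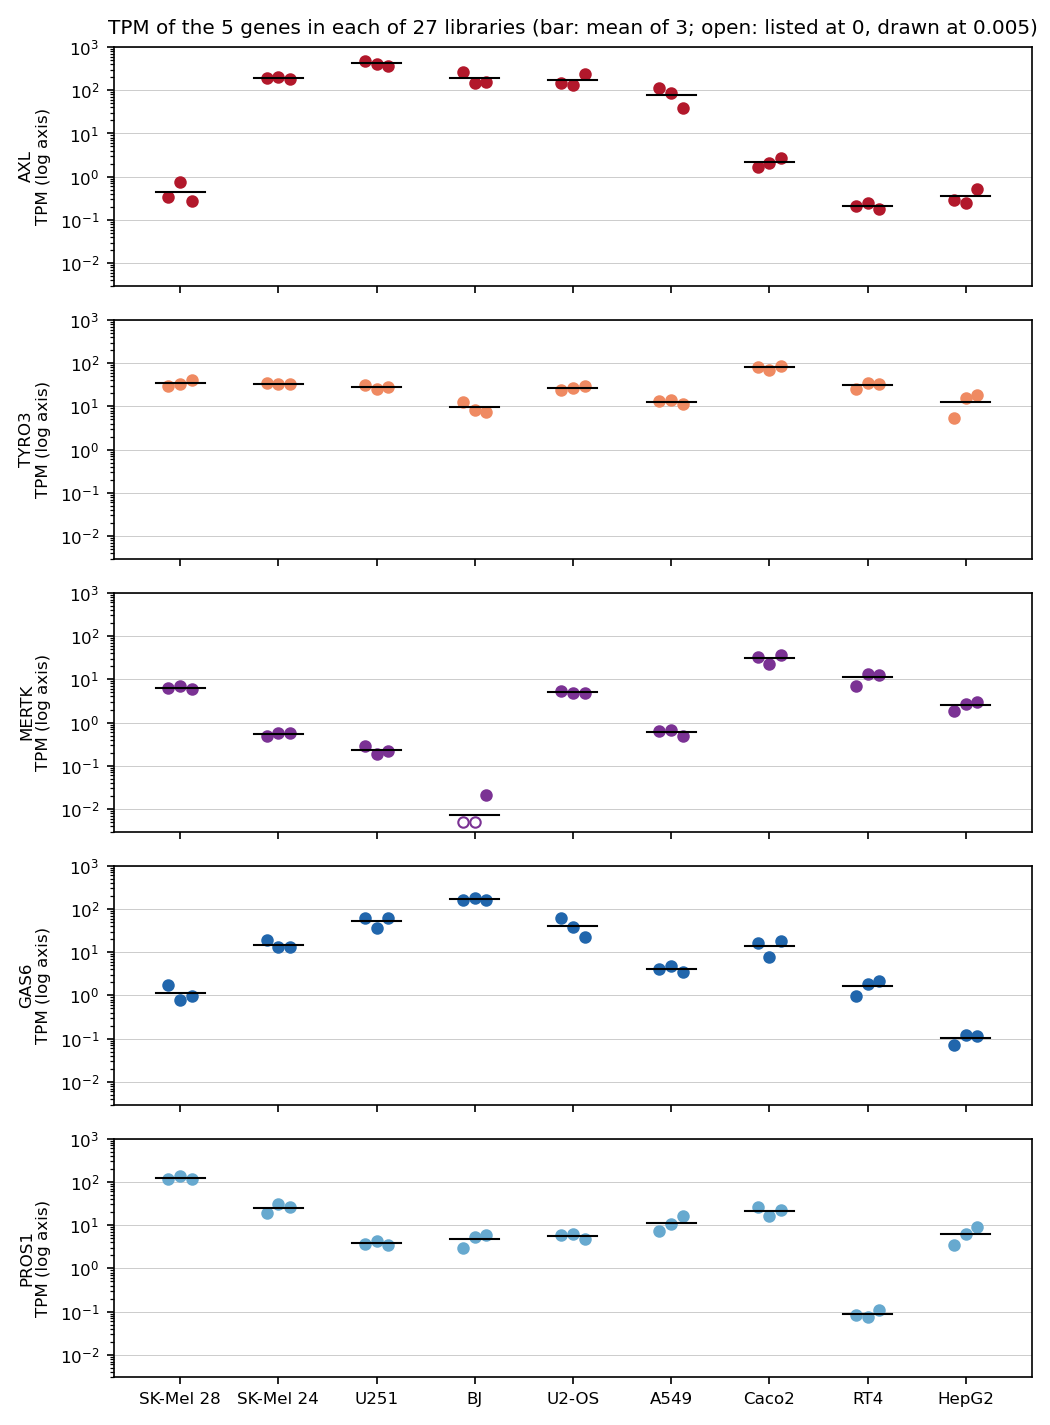
TPM on a log axis for AXL, TYRO3, MERTK, GAS6 and PROS1, with 1 point per library and a bar at the mean of the 3 libraries of each line. AXL splits the lines at a gap between 2.72 and 39.4 TPM, TYRO3 stays within about 1 decade, and MERTK is listed at 0 in 2 BJ libraries.

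The main AXL transcripts differ by 1 short exon. AXL-201 has 20 exons, and AXL-202 lacks exon 10, which has 27 bases (chromosome 19, 41239694 to 41239720) and codes for part of the region just outside the membrane. The bases that tell these transcripts apart are given from GENCODE 29, with exon 10 in capitals and 15 bases of the neighbouring exons in lower case.
AXL-201: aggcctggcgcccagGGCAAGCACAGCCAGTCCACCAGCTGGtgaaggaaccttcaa
AXL-202: aggcctggcgcccagtgaaggaaccttcaa
In the 5 lines with abundant AXL, AXL-201 took most of the gene's TPM, from 70.1% ± 8.03 in SK-Mel 24 to 90.9% ± 7.3 in BJ (SD, n = 3). AXL-202 took 21.6% ± 6.53 in A549, 19.9% ± 3.48 in U251, 18.9% ± 3.59 in SK-Mel 24, 13.9% ± 4.89 in U2-OS and 8.48% ± 6.5 in BJ. Libraries of these lines overlapped, since the first BJ library had 16% and the other two 4.73% and 4.72%. AXL-203, which starts further downstream, had 9.55% ± 5.28 in SK-Mel 24 and 5.14% ± 3.66 in A549. Transcript shares are the authors' assignments of reads that fit several transcripts, and they were not tested.

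AXL was the most abundant of 58 receptor tyrosine kinases in 3 lines. Its mean TPM ranked first in U251, where it made up 37.6% of the summed TPM of these receptors, in SK-Mel 24 (22.1%) and in U2-OS (20.6%). In BJ it ranked 2nd after PTK7, a pseudokinase of planar cell polarity (193 ± 70.3 TPM, SD, n = 3). It also ranked 2nd in A549 after MET, the receptor of hepatocyte growth factor (104 ± 4.82 TPM, SD, n = 3). In the other 4 lines its rank was 21 to 31. The leading receptors there were RYK in SK-Mel 28, FGFR4 in Caco2, ERBB2 in RT4 and ERBB3 in HepG2. TYRO3 ranked between 3rd (Caco2) and 16th (BJ), and MERTK between 10th (Caco2) and 52nd (BJ). All matched transcripts were counted for these ranks. On protein-coding transcripts alone TYRO3 had 24.1 ± 11.0 TPM in Caco2, against 79.3 ± 7.55 TPM on all (SD, n = 3 each). Ranks on coding transcripts were not taken.

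TYRO3 was present in every line and, with all matched transcripts counted, varied least of the 5 genes. It lies on chromosome 15 (41557675 to 41583586, plus strand). Caco2 was highest, with 82.7, 70.6 and 84.4 TPM. SK-Mel 28 had 29.3, 33.5 and 41.0 TPM. SK-Mel 24 had 34.8, 33.8 and 32.5 TPM. The Caco2 libraries did not overlap with those of any other line, while the melanoma lines overlapped with each other. RT4 had 25.0, 35.3 and 33.2 TPM. U251 had 31.8, 24.8 and 28.0 TPM. U2-OS had 23.3, 26.1 and 29.3 TPM. These 3 lines overlapped among themselves. RT4 overlapped with both melanoma lines, and U251 with SK-Mel 28. The highest U2-OS library met the lowest SK-Mel 28 library at 29.3 TPM. All U251 and U2-OS libraries lay below those of SK-Mel 24. HepG2 had 5.39, 15.5 and 17.9 TPM. A549 had 13.3, 14.2 and 11.2 TPM. BJ had 12.8, 8.38 and 7.45 TPM. The Caco2 mean was 8.3 times the BJ mean, against a span of 1637 times for GAS6 and 1378 times for PROS1 between their highest and lowest lines. Among neighbours in this order, Caco2 over SK-Mel 28 was called (log2 fold change 1.17 ± 0.19 SE, edgeR adjusted p = 8.65e-06). HepG2 and A549, both at a mean of 12.9 TPM, were also called different on scaled counts (log2 fold change of HepG2 over A549 1.64 ± 0.19 SE, edgeR adjusted p = 6.51e-08), and no other neighbours were.

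Much of the TYRO3 value sat on a transcript annotated as retaining an intron. This transcript is a single exon (chromosome 15, 41577335 to 41579338) that covers the end of an intron and the whole last exon of the main coding transcript of 19 exons. Its intron edge is given with the intron in capitals, beside the spliced junction of the coding transcript.
TYRO3 retained intron: TTCTCTCCACCCCAGgtatgatctcatgta
TYRO3 coding: gtgtatggaggacgtgtatgatctcatgta
Of its 2004 bases, 45.9% lie in the last exon of the main coding transcript, where reads cannot tell the transcripts apart. Another coding transcript runs further, to 41583586, past the end of the retained-intron transcript at 41579338. Bases shared with that longer transcript were not counted, so the remaining bases cannot all be taken as intron. The retained-intron transcript took 79.6%, 96.2% and 91.6% of TYRO3 TPM in the HepG2 libraries and 63.1%, 68.5% and 40.2% in Caco2. In RT4 it took 67.3%, 39.5% and 42.6%. In the other 6 lines its mean share was 28.2% to 39.1%, so the 3 HepG2 libraries stood above all 24 others. Retained-intron transcripts as a class also took 9.95% ± 1.26 of the TPM outside mitochondrial genes in HepG2 (SD, n = 3), against 3.85% to 5.21% as line means elsewhere. Their part in the TYRO3 result was not tested. Counting only transcripts annotated as protein coding, TYRO3 stood at 0.404 ± 0.094 TPM in HepG2, the lowest of the 9 lines, and at 24.1 ± 11.0 TPM in Caco2, still the highest (SD, n = 3 each). On these transcripts the Caco2 libraries (19.8, 15.9 and 36.6 TPM) overlapped with those of SK-Mel 28 and SK-Mel 24, and Caco2 over SK-Mel 28 was no longer called (log2 fold change 0.65). HepG2 over A549 turned to -0.81 and was not called (edgeR adjusted p = 0.0849).

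The 3 highest MERTK means were in lines where AXL was low. It lies on chromosome 2 (111898479 to 112029561, plus strand). Caco2 had 32.6, 22.5 and 36.1 TPM. RT4 had 6.84, 13.2 and 12.8 TPM. SK-Mel 28 had 6.21, 7.03 and 5.95 TPM. Caco2 lay above every other library, while RT4 and SK-Mel 28 overlapped. U2-OS had 5.45, 4.70 and 4.75 TPM. HepG2 had 1.87, 2.75 and 2.93 TPM. A549 had 0.635, 0.671 and 0.5 TPM. U2-OS was thus the 1 line with MERTK above 4 TPM beside abundant AXL. SK-Mel 24 had 0.499, 0.575 and 0.57 TPM. U251 had 0.283, 0.192 and 0.223 TPM. BJ was listed at 0 in 2 libraries and at 0.0215 TPM in the third. That is 1 estimated count over 3 BJ libraries, and 21 over the 3 U251 libraries. Neighbours not called were RT4 and SK-Mel 28, SK-Mel 28 and U2-OS, and A549 and SK-Mel 24, although RT4 over SK-Mel 28 was called without SK-Mel 28 library 2 (log2 fold change 1.01). The Caco2 mean was 131 times the U251 mean. HepG2 was called above U2-OS on scaled counts (log2 fold change of U2-OS over HepG2 -1.22 ± 0.25, edgeR adjusted p = 0.000164), against the order of their TPM, but not without HepG2 library 1 (-0.93).

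The transcript MERTK-202 took a large part of MERTK TPM in all HepG2 libraries, and in some but not all libraries of Caco2 and RT4. MERTK-203 has 20 exons. MERTK-202 has 18, lacks exon 2 of MERTK-203 (421 bases, chromosome 2, 111929120 to 111929540) and also differs from it elsewhere. The 2 junctions after exon 1 are given, with the first bases of exon 2 in capitals.
MERTK-203: cgctctggcgtagagCTATCACTGAGGCAA
MERTK-202: cgctctggcgtagagcataaccagtgtgca
MERTK-202 took 97.0%, 72.8% and 87.0% of MERTK TPM in HepG2, 56.2%, 45.0% and 7.35% in Caco2, and 45.8%, 17.5% and 0% after rounding in RT4. The HepG2 value was chosen after it was seen, since its MERTK mean of 2.52 ± 0.567 TPM (SD, n = 3) lay below the 5 TPM at which transcripts were to be named. Elsewhere only the second SK-Mel 28 library reached 15.3%. The 3 Caco2 libraries, and likewise those of RT4, thus ranged widely. HepG2, Caco2 and RT4 were also the lines with the highest share of the retained-intron transcript of TYRO3.

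**Figure D2:**
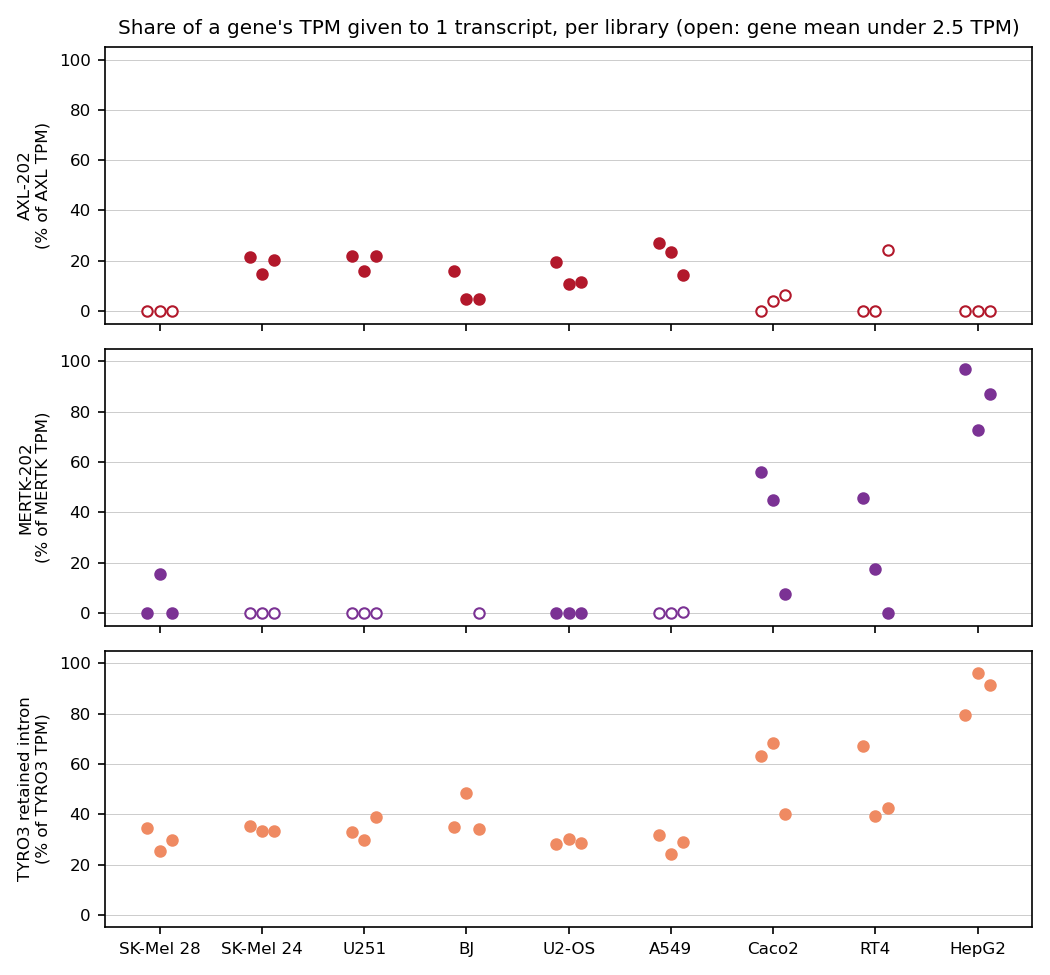
Share of a gene's TPM given to AXL-202, MERTK-202 and the retained-intron transcript of TYRO3, in percent, with 1 point per library. HepG2 libraries lie at 72.8% to 97.0% for MERTK-202 and 79.6% to 96.2% for the TYRO3 transcript, and open points mark lines where the gene averaged under 2.5 TPM.

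The receptor make-up fell into 2 patterns. AXL made up 83.8% to 95.1% (line means) of the summed TPM of the 3 receptors in BJ, U251, SK-Mel 24, U2-OS and A549. In SK-Mel 28, RT4, Caco2 and HepG2 it made up 0.517% to 2.51%. There TYRO3 had 71.1% to 83.2% and MERTK 15.6% to 26.9%. The 3 receptors together summed to 41.5 ± 5.73 TPM in SK-Mel 28 and 226.3 ± 7.46 TPM in SK-Mel 24 (SD, n = 3 each). The leading place of TYRO3 in the AXL-low lines depended on the transcripts counted. With protein-coding transcripts only, TYRO3 led in SK-Mel 28 (73.5% ± 4.84, against 25.3% ± 3.84 for MERTK, SD, n = 3), while MERTK led in HepG2 (76.7% ± 5.93) and Caco2 (53.6% ± 7.71). In RT4 the receptors were then near equal, at 51.2% ± 6.47 for TYRO3 and 48.0% ± 6.07 for MERTK.

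**Figure D3:**
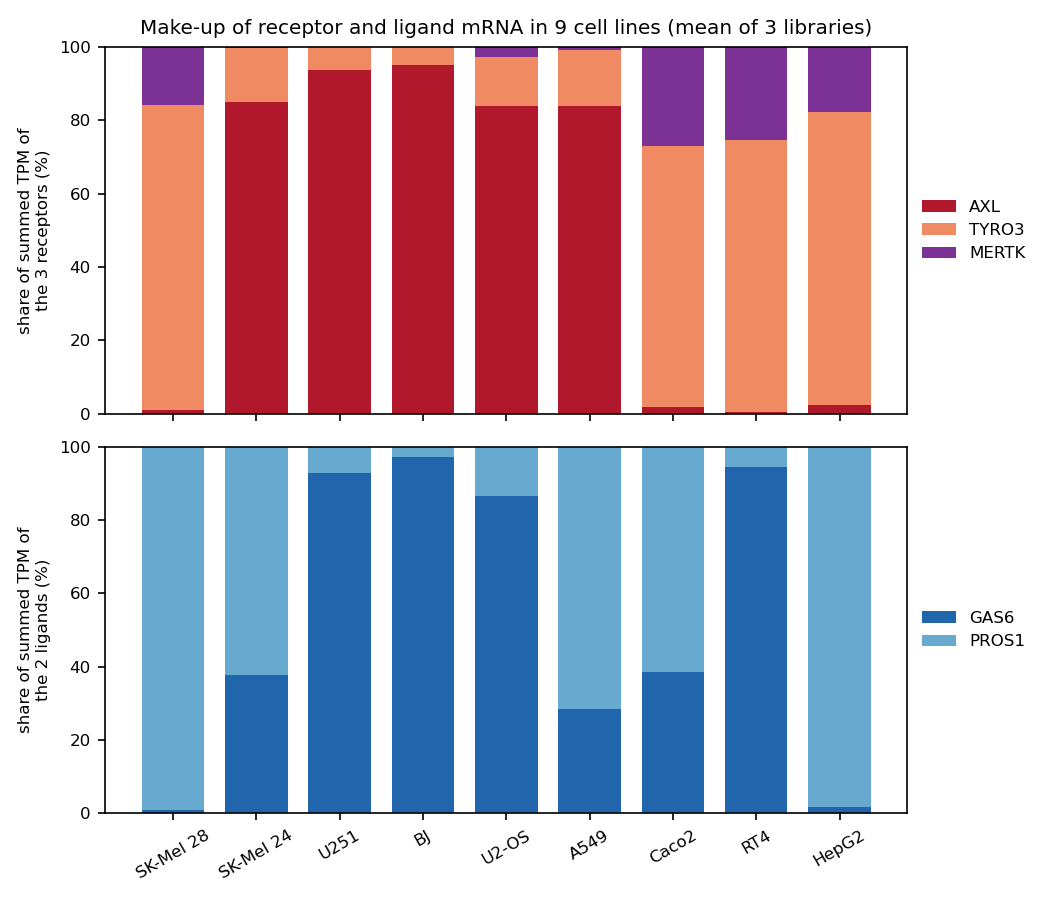
Stacked bars of the mean share (percent, 3 libraries) of AXL, TYRO3 and MERTK in their summed TPM, and of GAS6 and PROS1 in theirs, for 9 lines, counting all matched transcripts. AXL takes 83.8% to 95.1% in 5 lines and at most 2.51% in the other 4, and PROS1 takes 99.0% of the ligand TPM in SK-Mel 28.

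Across the 9 line means, log2(TPM + 1) of AXL and MERTK ran against each other (Pearson r -0.73, Spearman rank correlation -0.75). AXL and GAS6 ran together (r 0.81, rank correlation 0.85), as did TYRO3 and MERTK (r 0.73, rank correlation 0.65). These are descriptions over 9 points that share libraries, depth and the HepG2 scaling, and they carry no p. SK-Mel 28 and SK-Mel 24, which share a tissue label, ranked 7th and 2nd of the 9 lines for AXL and 3rd and 7th for MERTK.

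**Figure D4:**
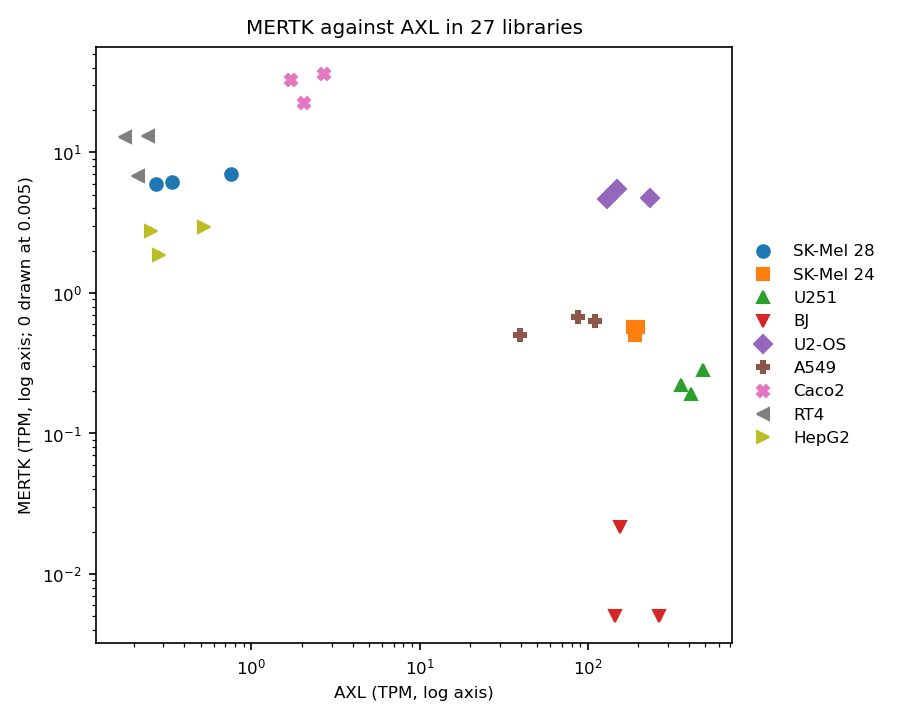
MERTK against AXL in TPM, both on log axes, with 1 point per library (27 in all) and 2 BJ libraries listed at 0 drawn at 0.005. Libraries with AXL below 3 TPM all have MERTK above 1.8 TPM, and of those with AXL above 30 TPM only the 3 U2-OS libraries do.

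The start regions of AXL and MERTK are shown because these genes had opposite levels. They run from 250 bases before to 50 bases after the RefSeq gene start (GRCh38.p14), at chr19:41218973-41219272 for AXL and chr2:111898357-111898656 for MERTK, both on the plus strand. Capitals mark GGGCGG or its reverse complement, the core of the Sp1 motif.
AXL: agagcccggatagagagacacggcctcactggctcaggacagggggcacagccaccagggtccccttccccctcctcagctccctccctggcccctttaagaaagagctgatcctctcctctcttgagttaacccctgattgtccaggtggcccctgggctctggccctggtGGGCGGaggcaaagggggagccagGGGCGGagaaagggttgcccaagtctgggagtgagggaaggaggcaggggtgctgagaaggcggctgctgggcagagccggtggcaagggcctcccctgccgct
MERTK: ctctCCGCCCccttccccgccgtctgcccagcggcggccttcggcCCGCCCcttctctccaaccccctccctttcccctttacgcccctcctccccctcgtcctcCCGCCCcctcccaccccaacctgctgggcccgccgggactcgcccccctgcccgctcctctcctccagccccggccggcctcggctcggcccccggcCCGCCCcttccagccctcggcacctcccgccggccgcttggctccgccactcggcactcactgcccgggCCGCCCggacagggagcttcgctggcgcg
On either strand, GGGCGG occurred 2 times in the AXL window and 5 times in the MERTK window, and 45.0% of 35116 promoter windows of the same length held it. The AXL window held 7 CpG dinucleotides and the MERTK window 32, against a median of 14 over all windows. The AP-1 motif TGANTCA occurred in neither (7.71% of windows held it), and the TEAD motif GGAATG in neither (14.0%). The E-box CANNTG occurred 1 time in the AXL window and not in the MERTK window, with 68.7% of windows holding it. A match is a description of letters only.

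GAS6, the ligand of all 3 receptors, was highest in fibroblasts. It lies on chromosome 13 (113820549 to 113864067, minus strand). BJ had 164, 180 and 161 TPM. U251 had 61.2, 36.4 and 63.1 TPM. U2-OS had 61.9, 38.5 and 22.5 TPM. BJ lay above every other library, and U251 and U2-OS overlapped. SK-Mel 24 had 18.7, 13.4 and 12.9 TPM. Caco2 had 15.9, 7.94 and 18.2 TPM. A549 had 4.02, 4.84 and 3.57 TPM. SK-Mel 24 and Caco2 overlapped, and A549 lay below both. RT4 had 0.97, 1.81 and 2.12 TPM. SK-Mel 28 had 1.71, 0.77 and 0.994 TPM. HepG2 had 0.0703, 0.12 and 0.118 TPM. HepG2 was the lowest line in every library, with 20 estimated counts over 3 libraries. The BJ mean was 145 times the SK-Mel 28 mean. BJ over U251 was called (log2 fold change 1.95 ± 0.31 SE, edgeR adjusted p = 1.13e-05), and neighbours not called were U251 and U2-OS, SK-Mel 24 and Caco2, and RT4 and SK-Mel 28. U251 over U2-OS was called without U251 library 2 (log2 fold change 1.06) or U2-OS library 1 (1.25). U2-OS over SK-Mel 24 was not called without U2-OS library 1 (0.61), SK-Mel 24 library 2 (0.95) or SK-Mel 24 library 3 (0.98), and A549 over RT4 not without RT4 library 1 (0.91) or A549 library 2 (0.98). SK-Mel 28 over HepG2 was not called without SK-Mel 28 library 1 (1.13). The main coding transcript of GAS6 took 79.8% (U2-OS) to 98.3% (SK-Mel 24) of its TPM in the lines with at least 5 TPM. GAS6 overlaps an antisense gene. The library kit keeps strand, but whether the authors' counting used it is not given in the sources used here, so antisense reads cannot be told apart.

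PROS1 was highest in SK-Mel 28. It lies on chromosome 3 (93873033 to 93980003, minus strand). SK-Mel 28 had 115, 136 and 117 TPM. SK-Mel 24 had 18.9, 30.5 and 26.1 TPM. Caco2 had 26.6, 16.2 and 21.8 TPM. All 3 SK-Mel 28 libraries exceeded every other library, and SK-Mel 24 and Caco2 overlapped. A549 had 7.24, 10.4 and 16.6 TPM. HepG2 had 3.41, 6.14 and 9.24 TPM. U2-OS had 5.87, 6.15 and 4.73 TPM. HepG2 overlapped with both A549 and U2-OS on the TPM scale. BJ had 2.99, 5.20 and 5.89 TPM. U251 had 3.57, 4.25 and 3.48 TPM. RT4 had 0.0816, 0.0739 and 0.111 TPM. RT4 held 17 estimated PROS1 counts in all, and the U251 mean, the next lowest, was 42.4 times its mean. On scaled counts HepG2 was called above A549 (log2 fold change of A549 over HepG2 -1.20 ± 0.26, edgeR adjusted p = 0.000221). HepG2, the line from the organ that makes most plasma protein S, ranked 5th by TPM and 2nd by counts on TMM-scaled library sizes. That 2nd place was not set apart from SK-Mel 24 or Caco2. SK-Mel 24 over HepG2 was not called (log2 fold change -0.09 ± 0.25, edgeR adjusted p = 0.765). Caco2 over HepG2 was not called either (-0.16 ± 0.25, edgeR adjusted p = 0.602). Without A549 library 1 the call between A549 and HepG2 was lost (-0.95). Caco2 over A549 was lost without Caco2 library 1 (0.93), A549 library 1 (0.80) or A549 library 2 (0.96). SK-Mel 24 and Caco2, U2-OS and BJ, and BJ and U251 were not called. The main coding transcript of PROS1 took 67.5% (SK-Mel 24) to 99.0% (HepG2) of PROS1 TPM in the lines with at least 5 TPM. Of 5 PROS1 transcripts in the tables, 4 have another length there than in GENCODE 29, and the deposited TPM rests on the lengths in the tables. The near-identical copies PROS2P and TYRO3P held 1 and 6 counts over all 27 libraries.

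The lines differed in which ligand prevailed. GAS6 made up 97.3% ± 0.87 of the summed ligand TPM in BJ, 94.4% ± 1.98 in RT4, 92.9% ± 2.95 in U251 and 86.7% ± 4.38 in U2-OS (SD, n = 3 each). PROS1 made up 99.0% ± 0.463 in SK-Mel 28 and 98.3% ± 0.411 in HepG2 (SD, n = 3 each), and 61.4% to 71.6% in Caco2, SK-Mel 24 and A549. The sum of both ligands was smallest in RT4, at 1.72 ± 0.604 TPM, and largest in BJ, at 173 ± 10.3 TPM (SD, n = 3 each). BJ, U251 and U2-OS, where GAS6 prevailed, were lines where AXL prevailed among the receptors. RT4 combined GAS6 with TYRO3 and MERTK at low ligand levels.

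The melanoma lines differed in 4 of the 5 genes. AXL had 0.337, 0.753 and 0.272 TPM in SK-Mel 28, against 192, 199 and 185 TPM in SK-Mel 24. It fell by 9.34 on the log2 scale (SE 0.53, edgeR adjusted p = 4.97e-13). GAS6 was lower too, by a log2 fold change of -3.61 ± 0.36 (edgeR adjusted p = 7.61e-09). MERTK had the higher level in SK-Mel 28 (log2 fold change 3.67 ± 0.30, edgeR adjusted p = 2.52e-10), at 6.40 ± 0.565 TPM against 0.548 ± 0.0425 TPM in SK-Mel 24 (SD, n = 3 each), where it rested on 75 estimated counts over the 3 libraries. PROS1 was higher as well (2.32 ± 0.26, edgeR adjusted p = 7.97e-08), at 123 ± 11.5 TPM against 25.2 ± 5.86 TPM. In these 4 genes no SK-Mel 28 library overlapped with an SK-Mel 24 library. TYRO3 was not called (log2 fold change -0.13 ± 0.19, edgeR adjusted p = 0.623), at 34.6 ± 5.97 TPM in SK-Mel 28 and 33.7 ± 1.13 TPM in SK-Mel 24. Between these lines 32.0% of tested genes were called, 15.5% higher and 16.5% lower in SK-Mel 28. Serum also differed, at 10% for SK-Mel 28 and 15% for SK-Mel 24, and cannot be told apart from the line.

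Genes of the MITF-high and AXL-high melanoma states divided the lines the same way. All 12 genes of the MITF-high list were called higher in SK-Mel 28, against 15.5% of all tested genes. Their median log2 fold change was 5.49, against 0 over all tested genes. PMEL, which forms the fibrils of the melanosome, had 8877 ± 2255 TPM in SK-Mel 28 and 3.10 ± 3.16 TPM in SK-Mel 24 (SD, n = 3 each). MITF itself had 240.6 ± 22.9 TPM in SK-Mel 28 and 11.8 ± 1.75 TPM in SK-Mel 24. TYR, the tyrosinase of pigment synthesis, had 444 ± 89.3 TPM in SK-Mel 28 and 0.329 ± 0.158 TPM in SK-Mel 24. Of the 16 genes of the AXL-high list, 13 were called lower in SK-Mel 28, 1 higher and 2 neither. Their median was -3.26, and 16.5% of all tested genes were called lower. TGFBI, a secreted matrix protein, had 0.526 ± 0.348 TPM in SK-Mel 28 and 1080 ± 62.9 TPM in SK-Mel 24 (log2 fold change -11.90 ± 0.43). LOXL2, a collagen crosslinking enzyme, had 3.26 ± 1.52 TPM in SK-Mel 28 and 339 ± 46.0 TPM in SK-Mel 24. The exception was NT5E, the ecto-enzyme CD73, which stood higher in SK-Mel 28 cells (log2 fold change 1.70 ± 0.38, edgeR adjusted p = 0.000629), and ZEB1 and TNC were not called. These lists come from the literature and were chosen with results of these data known, so their direction is no independent evidence.

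**Figure D5:**
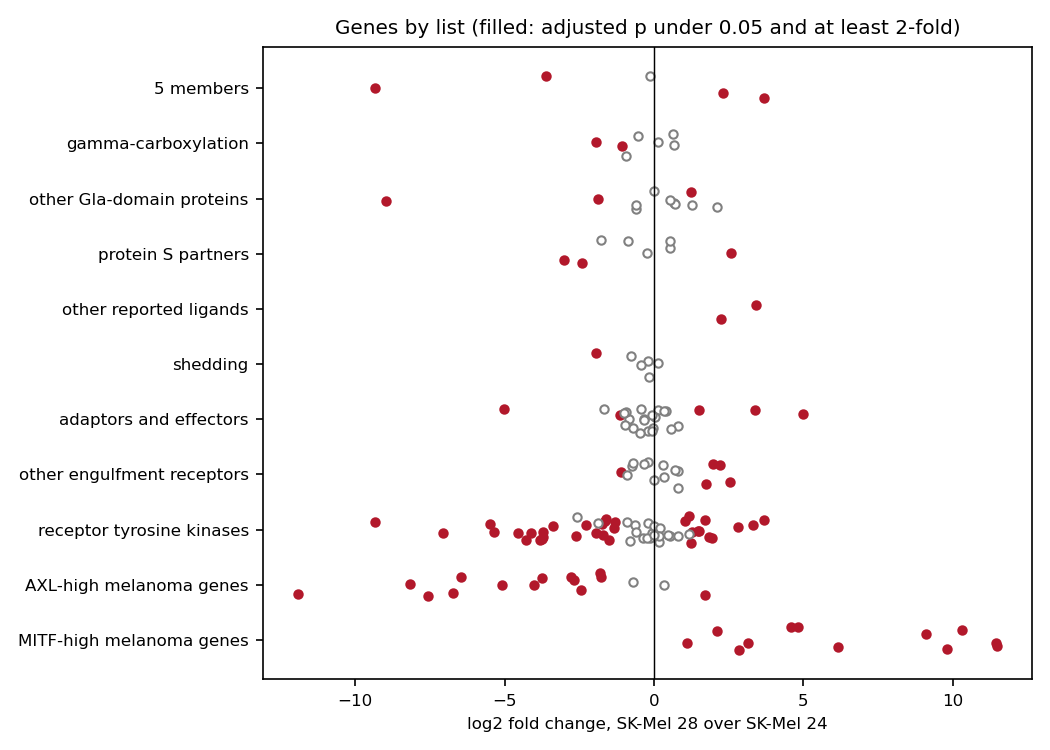
Log2 fold change of SK-Mel 28 over SK-Mel 24 for the 5 genes and for the tested genes of 10 lists, 1 point per gene, filled where called. All 12 MITF-high genes lie to the right, 13 of 16 AXL-high genes are called to the left, and most genes of the carboxylation and adaptor lists are open.

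The other receptor tyrosine kinases also differed between the melanoma lines. Of 54 tested, AXL, TYRO3 and MERTK included, 12 were called higher and 22 lower in SK-Mel 28. Over all tested genes the shares were 15.5% higher and 16.5% lower, and no difference from them was tested. Some of these calls rest on few counts, such as ROS1 with 0 in SK-Mel 28 and 6 in SK-Mel 24. EPHA2, an ephrin receptor, had 2.72 ± 0.382 TPM in SK-Mel 28 and 114 ± 6.56 TPM in SK-Mel 24 (SD, n = 3 each). EGFR had 0.817 ± 0.0667 TPM in SK-Mel 28 and 10.6 ± 0.862 TPM in SK-Mel 24. AXL had the largest change of the receptors with at least 5 TPM in either line.

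The machinery that carboxylates both ligands was expressed in every line. GGCX, the carboxylase, ranged from 11.5 TPM in HepG2 to 94.4 ± 6.91 TPM in SK-Mel 28, and VKORC1, which recycles vitamin K, from 43.5 TPM in Caco2 to 250 ± 22.4 TPM in SK-Mel 28. Of the 7 genes of this list, 0 were called higher and 2 lower in SK-Mel 28 than in SK-Mel 24. They were EPHX1, a microsomal epoxide hydrolase (log2 fold change -1.95 ± 0.24), and VKORC1L1, a paralog of VKORC1 (-1.08 ± 0.18), and the lower count was 1 without SK-Mel 28 library 3 or SK-Mel 24 library 2 and 3 without SK-Mel 28 library 2. Over all tested genes 16.5% were called lower. Among other Gla proteins, 11 of 12 were tested, with 1 called higher and 2 lower. The higher call, of PRRG2, was lost with DESeq2 and in most fits that left out 1 library. MGP, the matrix Gla protein that inhibits calcification, had 1.97 ± 1.20 TPM in SK-Mel 28 and 662 ± 140 TPM in SK-Mel 24 (log2 fold change -8.96 ± 0.66, edgeR adjusted p = 4.90e-11). MGP also reached 203.2 ± 99.97 TPM in U251 and 136 ± 77.0 TPM in BJ, while F2 (prothrombin) led in HepG2 at 127 ± 66.9 TPM (SD, n = 3 each). HepG2 held PROC, the precursor of the protease that protein S assists, at 90.5 ± 46.4 TPM, against at most 2.37 TPM in any other line.

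Of 8 partners of protein S, 1 was called higher and 2 lower in SK-Mel 28, a share near the 32.0% of all tested genes (1 lower without SK-Mel 28 library 2, SK-Mel 24 library 1 or SK-Mel 24 library 3). PROCR, the endothelial protein C receptor, was higher in SK-Mel 28 (101 ± 12.6 TPM, against 18.4 ± 2.75 TPM in SK-Mel 24). TFPI, an inhibitor of the tissue factor pathway that uses protein S as a cofactor, was lower (10.0 ± 2.09 TPM, against 44.9 ± 3.09 TPM in SK-Mel 24). THBD (thrombomodulin) was called lower on 2 counts in SK-Mel 28 and 17 in SK-Mel 24. C4BPA and C4BPB, the chains of the complement regulator that carries protein S in plasma, were under 1 TPM in both melanoma lines, and C4BPB stood at 104 TPM in Caco2 and 46.3 TPM in HepG2. Galectin-3 and Tubby have been reported as further ligands. LGALS3 (galectin-3) was higher in SK-Mel 28, at 1324 ± 250 TPM against 142 ± 20.0 TPM in SK-Mel 24 (log2 fold change 3.40 ± 0.37, edgeR adjusted p = 3.61e-08), and TUB was too (2.25 ± 0.22, edgeR adjusted p = 1.18e-08). TULP1 did not pass the filter.

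Genes for shedding, signalling and engulfment are read against the 32.0% of all tested genes called between the melanoma lines, and no difference from that share was tested. The ADAM10 and ADAM17 proteases cut TAM receptors at the cell surface. Of the 6 shedding genes 1 was called, TIMP3, a metalloprotease inhibitor, at 518 ± 90.1 TPM in SK-Mel 28 and 2083 ± 127 TPM in SK-Mel 24. Of 25 adaptors and effectors, 3 were called higher and 2 lower in SK-Mel 28. The lower count was 4 with DESeq2 and when SK-Mel 28 library 2 or 3, SK-Mel 24 library 1 or U2-OS library 3 was left out. VAV3, a guanine nucleotide exchange factor, had 37.4 ± 8.66 TPM in SK-Mel 28 and 1.43 ± 0.807 TPM in SK-Mel 24, and SOCS3, an inhibitor of cytokine signalling, had 0.844 ± 0.0979 TPM in SK-Mel 28 and 29.1 ± 8.34 TPM in SK-Mel 24 (SD, n = 3 each). PIK3CB, a catalytic subunit of PI3 kinase, was higher (log2 fold change 1.52 ± 0.17), and SHC1, an adaptor, was lower (-1.13 ± 0.13). The remaining higher call, of VAV1, rested on 4 estimated counts in SK-Mel 28 and 0 in SK-Mel 24. Of 16 other engulfment genes, 4 were called higher and 1 lower (0 lower without SK-Mel 28 library 3 or SK-Mel 24 library 2), a share near that of all genes. MFGE8, a bridge from phosphatidylserine to integrins, had 789 ± 161 TPM in SK-Mel 28 and 167 ± 16.5 TPM in SK-Mel 24.

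The genes whose line means followed each member most closely were taken from 11507 protein-coding genes by Pearson r of log2(TPM + 1) over the 9 lines. For AXL they were PXDN, COL4A1, COL4A2, AFAP1 and LOXL2 (r 0.96 for each). COL4A1 and COL4A2, the chains of basement membrane collagen, had 0.62 and 2.68 TPM in SK-Mel 28, against 31.7 and 68.4 TPM in SK-Mel 24. For GAS6 they were COL6A1, COL12A1 and CYR61 (r 0.96 each), RASSF1 (0.95) and GPR176 (0.94). For MERTK they were CCDC58 (0.97), MPZL3 (0.95), EPB41L5 and CDK18 (0.92 each) and HIC2 (0.91). For TYRO3 they were PROSER1 (0.96), ADRM1, PELI1, CLPB and RBM39. For PROS1 they were ST6GAL1, a sialyltransferase, and STRADB (0.96 each), SSU72, VAC14 and QDPR. ST6GAL1 had 199.8 TPM in SK-Mel 28 and 32.6 TPM in SK-Mel 24. With 9 points chosen from so many genes, such values are a description only.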

How the data were processed

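Poly-A RNA of 9 cell lines was sequenced with 3 libraries each. CASAVA 1.8 and kallisto 0.43.1 are listed as tools, and GRCh38 as the build, per the submitters' processing notes, and no strand setting is listed. The deposited tables give, per the file headers, an estimated count and a TPM (scaled to transcript length and library total) for each of 176241 transcripts. By identifier, 159887 matched GENCODE 29, and 16354 (9.28%, with 0.614% to 3.75% of TPM) were left out. Both values were summed to genes, and counts were then rounded. No 2 libraries of a line agreed within sampling noise (27 pairs, lowest chi-square ratio 5.48). Counts of 17220 genes were fitted with edgeR 4.0.16 in R 4.3.3 (TMM, filterByExpr, robust quasi-likelihood, 27 libraries in 1 fit). P-values were adjusted over all genes by Benjamini-Hochberg, and calls asked for 0.05 and a log2 change of 1 in size. Scripts were tested on simulated data. Alternatives were DESeq2 1.42.0 and its size factors, no filter, no mitochondrial genes, no HepG2, a block by the number after P in the titles, protein-coding transcripts only, and each library left out. Members and lists were chosen with earlier results of these data known. Up to 4 called genes per list with the largest change and at least 5 TPM in the higher line were named, plus genes of lists of 8 or fewer. A gene that this rule names is not reported here. MITF, NT5E, ZEB1 and TNC were named after their values were seen. Junctions come from GENCODE 29 and start regions from RefSeq (GRCh38.p14).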

Additional observations from a re-analysis of the deposited data

How the results depend on the processing

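The 4 calls and the 1 missed call of the members between SK-Mel 28 and SK-Mel 24 stood under every alternative, as did their F tests. Counts of called genes in the MITF-high, AXL-high, shedding and further-ligand lists stood without any 1 library. The 1 Gla protein called higher in SK-Mel 28 (PRRG2) became 0 with DESeq2 size factors, without a filter, with the replicate block, with protein-coding transcripts only and with DESeq2, and ranged from 0 to 1 over the fits without 1 library. The 2 adaptors and effectors called lower became 4 with DESeq2 size factors and with DESeq2, and ranged from 2 to 4 without 1 library. Without 1 library, the lower counts ranged from 1 to 3 for carboxylation genes, 1 to 2 for protein S partners and 0 to 1 for engulfment genes, and receptor tyrosine kinases from 9 to 12 higher and 19 to 23 lower. With protein-coding transcripts only, TYRO3 in U2-OS over HepG2 turned from -0.87 to 1.62, and in HepG2 over A549 from 1.64 to -0.81. Leaving out 1 library changed 19 of 1080 neighbour values. Most of the 1080 left out a library outside the pair, and all 19 changes came from leaving out a library of the pair itself. GAS6 in U2-OS over SK-Mel 24 was among them (0.61 without U2-OS library 1, no longer called). HepG2 ranked 7th for TYRO3 by TPM, 2nd by counts on TMM-scaled library sizes (an alternative chosen after seeing the data) and 9th on coding transcripts. The number after P did not pair libraries (median r of deviations -0.022 for the same number, -0.001 for different numbers). AXL in RT4 and SK-Mel 28, MERTK in BJ, U251 and SK-Mel 24, GAS6 in HepG2 and PROS1 in RT4 rest on fewer than 100 counts over 3 libraries, which limits the precision of these levels.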
